A study of Mus musculus with 4 samples.

Results

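Chromatin accessibility at 10 genes that hold back or drive the cell cycle was described in the aortic nuclei of control and VEDS mice. The genes were the cyclin-dependent kinase inhibitors *Cdkn1a*, *Cdkn1b*, *Cdkn2a*, *Cdkn2b* and *Cdkn2c*, the p53 gene *Trp53* with *Mdm2* and *Gadd45a*, the retinoblastoma gene *Rb1* and the cyclin D1 gene *Ccnd1*. All peaks in the body of a gene or within 20 kb of it (GENCODE vM21 annotation, GRCm38) were taken, without regard to their values. These were 17 of 21176 peaks for the control female library, 35 of 41444 for the VEDS male, 1 of 504 for the VEDS female and 1 of 1236 for the control male. The 10 genes were among 21938 protein-coding genes annotated.

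Vascular Ehlers-Danlos syndrome (VEDS) is a disease of fragile arteries caused by variants of the type III collagen gene. Control mice were Col3a1+/+ and VEDS mice were Col3a1G938D/+, heterozygous for a glycine substitution in the collagen triple helix. All mice were 60 days old (P60) and were given no agent. ATAC-seq, in which the transposase Tn5 cuts open DNA, was done on nuclei of whole aorta with a single-cell kit, and each library was analyzed in aggregate, so that cell types were not separated. Each genotype had 2 libraries, 1 of females and 1 of males, and each library pooled 2 mice. No sex was replicated within a genotype, and the smallest two-sided p that an exact permutation of 2 libraries against 2 allows is 0.333. No test between genotypes was therefore made. The 2 long lists (control female and VEDS male) differ in both genotype and sex, so that these cannot be told apart between them.

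Cell cycle entry is gated by cyclin D and its kinases, which phosphorylate the retinoblastoma protein RB and release E2F factors. The INK4 proteins (from *Cdkn2a*, *Cdkn2b*, *Cdkn2c*) block these kinases, and the CIP/KIP proteins p21 (*Cdkn1a*) and p27 (*Cdkn1b*) bind cyclin-kinase complexes more broadly. p53 is held down by the ubiquitin ligase MDM2, and once stabilized it activates *Cdkn1a*, *Gadd45a* and *Mdm2* itself through paired short sites in DNA. In the arterial wall, p21, p27 and the INK4 proteins are known as brakes on smooth muscle proliferation.

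Several sequences at these genes matter for the results that follow. They are given 5′ to 3′ on the strand of the gene (GRCm38), with the motif in capitals. The p53 element stands for 2 paired sites of 10 bases with up to 13 bases between them and at most 2 mismatches in all, AP-1 for TGACTCA or TGAGTCA, and CRE, the cyclic AMP response element, for TGACGTCA. First are 3 promoters as RefSeq (GRCm38.p6) gives them, up to the base before the TSS and without annotated UTR. The promoter of the upstream *Cdkn1a* start at chr17:29090729-29090978 (plus strand) had a p53 element with no mismatch and no peak in any list. The 2 sites of this element are 12 bases apart. The 10 bases behind its second site, in lower case, also pair with that site without a gap, but with more mismatches. Of overlapping matches, only that with the fewest mismatches was kept and marked. The *Gadd45a* promoter at chr6:67037408-67037657 (minus strand) had the highest-ranked peak of the 10 genes in the VEDS male list. Its capitals mark a GC box (GGGCGG on the other strand), an NF-Y match and a p53 element with 2 mismatches. The *Cdkn2b* promoter at chr4:89311040-89311282 (minus strand) had a CRE, in capitals.
Cdkn1a upstream promoter: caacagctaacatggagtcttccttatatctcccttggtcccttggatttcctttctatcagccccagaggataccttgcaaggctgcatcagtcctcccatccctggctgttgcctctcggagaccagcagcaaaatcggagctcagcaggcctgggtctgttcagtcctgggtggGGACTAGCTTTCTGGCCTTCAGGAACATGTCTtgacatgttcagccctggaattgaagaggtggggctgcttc
Gadd45a promoter: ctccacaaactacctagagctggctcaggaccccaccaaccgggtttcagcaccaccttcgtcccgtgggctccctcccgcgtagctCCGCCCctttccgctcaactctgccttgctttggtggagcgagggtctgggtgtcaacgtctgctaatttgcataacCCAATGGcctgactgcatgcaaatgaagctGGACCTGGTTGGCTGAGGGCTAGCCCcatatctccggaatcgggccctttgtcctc
Cdkn2b promoter: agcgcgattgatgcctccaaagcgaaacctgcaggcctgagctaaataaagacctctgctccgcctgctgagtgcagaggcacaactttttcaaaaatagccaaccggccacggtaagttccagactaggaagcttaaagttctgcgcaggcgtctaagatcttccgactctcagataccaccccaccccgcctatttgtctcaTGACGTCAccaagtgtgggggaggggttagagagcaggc

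Next are short stretches read from the reference genome under peaks that lie outside a main promoter. The *Trp53cor1* element lay at chr17:29079039-29079058 and the *Cdkn1a* intron match at chr17:29095572-29095578 (both plus strand). The *Mdm2* upstream region held a p53 element at chr10:117717736-117717755 and an AP-1 match at chr10:117717809-117717815, and the internal *Mdm2* peak an AP-1 match at chr10:117710142-117710148 (minus strand). The *Gadd45a* body held an AP-1 match at chr6:67036532-67036538, the *Rb1* intron a p53 element at chr14:73234766-73234790, and the stretch upstream of *Ccnd1* an E2F match (TTTCCCGC) at chr7:144941598-144941605 (minus strand).
Trp53cor1 start, p53 element with 1 mismatch: accgaAGGCAAGCCCGGGCAAGGCCggcag
Cdkn1a intron, AP-1: gggcaggaaacTGACTCAccactccttgc
Mdm2 upstream, p53 element with 1 mismatch: ggaggAAACATGTACAAACATGTCCaagca
Mdm2 upstream, AP-1: ggctgacagggTGACTCAgcaagtccagg
Mdm2 internal, AP-1: ctgggccgagtTGACTCAgctcttcctgt
Gadd45a body, AP-1: agatatccctgTGAGTCAgcaagctgccc
Rb1 intron, p53 element with 1 mismatch: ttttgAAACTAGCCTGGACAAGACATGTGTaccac
Ccnd1 upstream, E2F: gtttcctggtcTTTCCCGCggtggcggtgg

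The libraries differed widely in list length and signal. The pileup (the number of fragments or extended cut ends at the summit, recovered from the deposited fold and p) had medians of 14 and 22 in the long lists (control female, VEDS male) and of 6 and 7 in the short ones (VEDS female, control male). Peaks in which over 50% of bases are repeat-masked were 3.90% and 5.10% of the 2 long lists, but 28.1% of the VEDS female and 69.6% of the control male list. Of the defining markers of vascular smooth muscle cells (VSMC), 5 of 5 had a peak within 3 kb of a TSS in each long list and 0 of 5 in each short list. Among 16 markers of other cells of the aorta or its surroundings (striated muscle, fat, immune, endothelial and fibroblast markers), 4 had one in the control female list and 9 in the VEDS male. The part of cell makeup and depth in the results was not tested. Fold enrichment is the pileup divided by the background estimated around the peak, after a pseudocount of 1 is added to each. Fold enrichment and rank by −log10 q are given within a list only, and a region without a peak was not taken as closed.

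Most of the 10 genes had a promoter peak in both long lists, and none had one in a short list. A peak within 3 kb of a TSS of the gene was present for 8 of 10 genes in the control female library (95% Wilson interval 49.0% to 94.3%) and 10 of 10 in the VEDS male (72.2% to 100%). The 2 genes without one in the control female list were *Cdkn2a* and *Ccnd1*. In the VEDS female and control male lists the count was 0 of 10, for which the interval reaches 27.8%. Over all protein-coding genes the share was 47.4% for the control female library and 58.5% for the VEDS male, and in the short lists 1.49% (VEDS female) and 1.56% (control male). With the gene body and 20 kb on either side, 10 of 10 genes had a peak in each long list, against 64.1% and 73.5% of all protein-coding genes. In the short lists 1 of 10 did, against 3.20% in the VEDS female and 4.61% in the control male. Intervals cover counting error only.

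**Figure D1:**
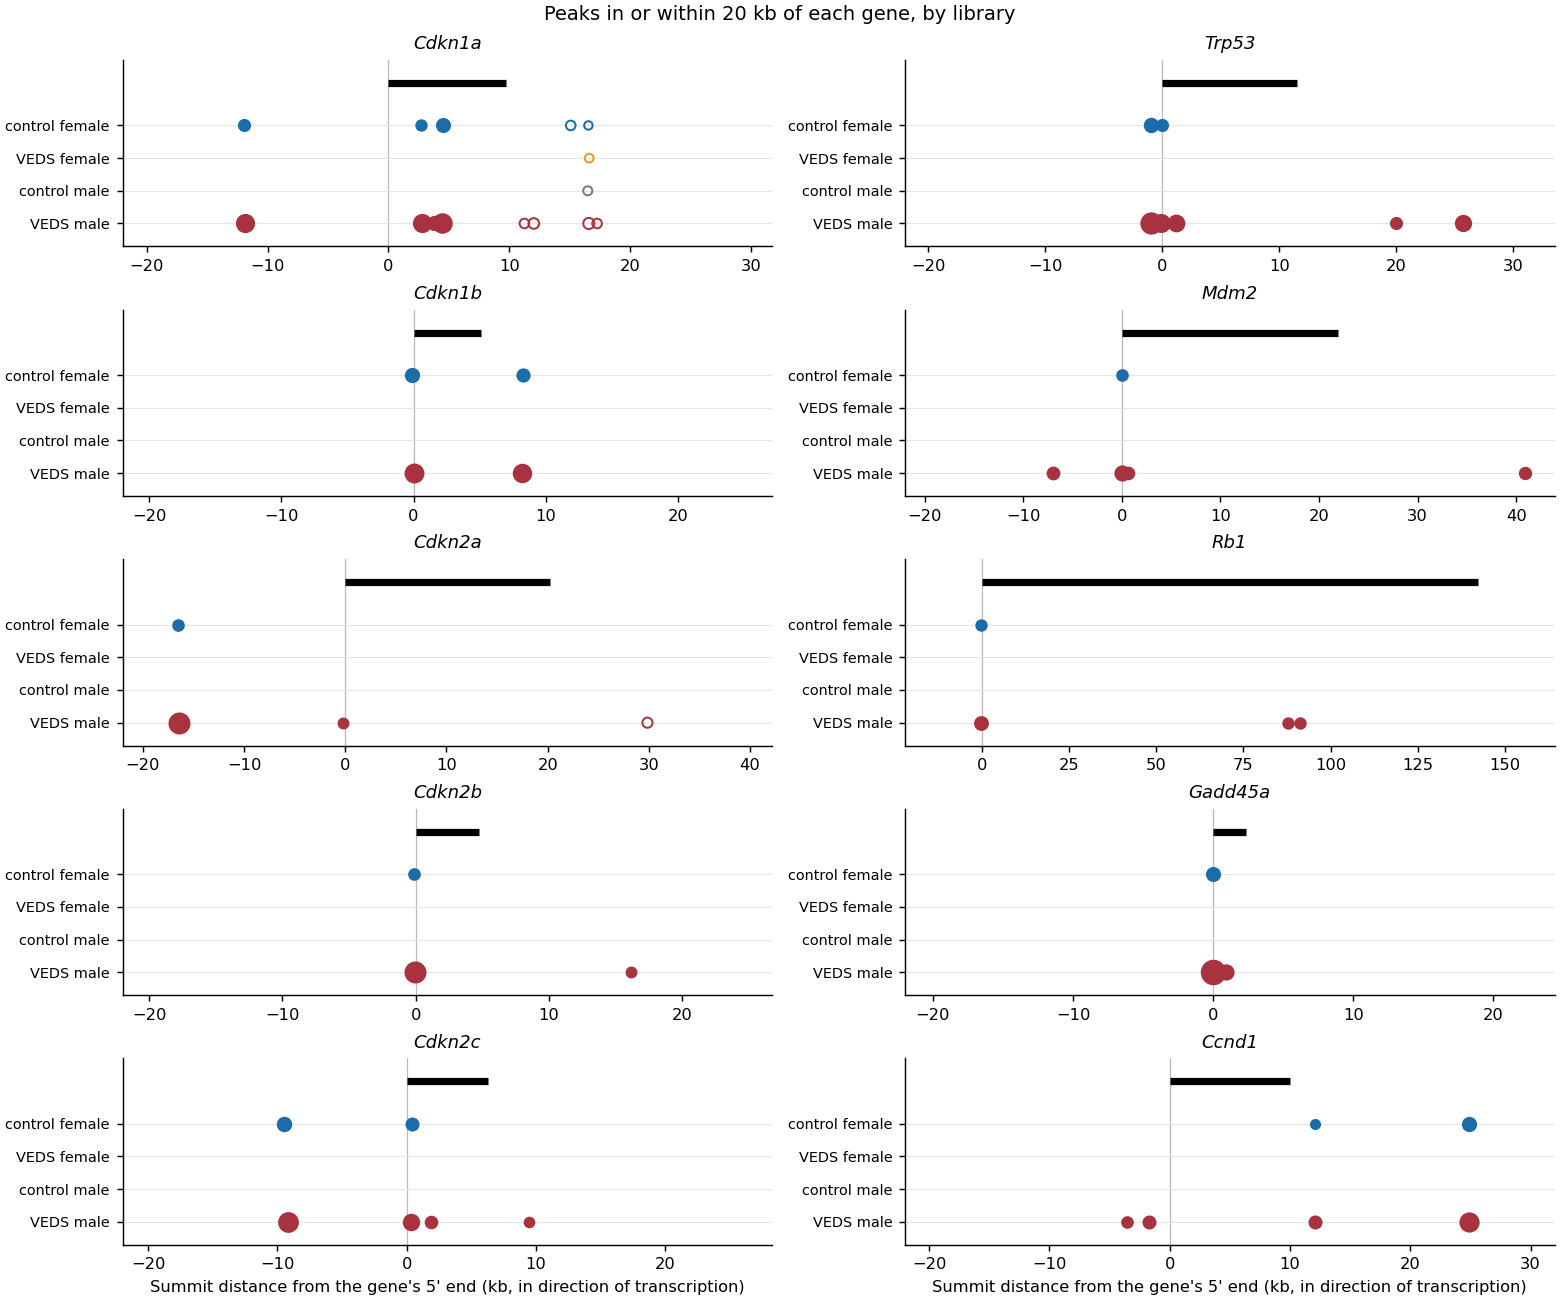
Peaks in or within 20 kb of each gene, by distance of the summit from the gene's 5′ end (kb, in the direction of transcription; gene body in black). Each row is a library, the area of a circle grows with the pileup (5 to 97), and open circles are peaks over 50% repeat-masked. The short lists had 1 peak each, both open circles downstream of *Cdkn1a*.

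The peaks fell into 35 merged regions, of which 19 were in the VEDS male list alone, 15 in both long lists and 1 in all 4. Within 3 kb of a TSS of one of the 10 genes lay 10 of the 17 control female peaks and 18 of the 35 VEDS male peaks. A further 4 and 8 lay within 3 kb of the TSS of another gene only, and 3 and 9 were farther from any TSS, of which 2 and 5 were over 50% masked. Pileup ranged from 5 to 26 (median 15) in the control female peaks and from 9 to 97 (median 23) in the VEDS male.

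*Cdkn1a* encodes p21, the main p53-induced inhibitor. At its main TSS a peak was called in the control female (chr17:29093650-29093842, fold 4.06, −log10 q 3.33, rank 18915, pileup 12 over a background of 2.21) and in the VEDS male (chr17:29093611-29093815, fold 6.23, −log10 q 21.5, rank 11594, pileup 48 over 6.86). A peak of higher rank lay in the intron behind it. In the control female it started 1582 bp downstream of a TSS, with fold 7.80, rank 5723 and pileup 24. In the VEDS male it started 1479 bp downstream, with fold 7.31, rank 7951 and pileup 57. Both intron peaks held the AP-1 match shown above, and no TSS peak of *Cdkn1a* did. A further site in the same intron was in the VEDS male list only (chr17:29094705-29094965, fold 3.17, rank 34157, pileup 24) and held a GC box and a match to the steroid receptor element, the latter across the edge of the peak. An annotated antisense transcript not yet verified, AC167363.2, overlaps this stretch, so that these peaks are also within 3 kb of its TSS.

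The upstream *Cdkn1a* start, whose promoter carries the p53 element without mismatch, was without a peak in all 4 libraries. From that element the nearest control female peak was 2713 bp away and the nearest VEDS male peak 2674 bp. A p53 element with 1 mismatch instead lay under a peak at the start of *Trp53cor1*, the gene of the p53-induced noncoding RNA lincRNA-p21. This peak had fold 7.56, rank 9263 and pileup 15 in the control female, and fold 11.3, rank 6062 and pileup 48 in the VEDS male. It was 11780 bp and 11645 bp from the nearest *Cdkn1a* TSS, respectively.

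Downstream of *Cdkn1a* was the only region present in all 4 lists. In the VEDS female it was the single peak of the 10 genes (chr17:29107444-29107727, fold 5.44, −log10 q 3.26, rank 249, pileup 6), and in the control male likewise (chr17:29107409-29107735, fold 4.33, −log10 q 2.06, rank 1060, pileup 7). In the control female it had fold 3.72, rank 21038 and pileup 5, near the end of the list. In the VEDS male a wider peak had fold 6.16, rank 26396 and pileup 15. Repeat-masked bases made up 83.9% (control female), 86.6% (VEDS female), 86.9% (control male) and 94.5% (VEDS male) of this peak. How reads that map to several places were treated is not given in the sources used here, and the part of repeats in this shared peak was not tested. A neighbouring control female peak and 3 neighbouring VEDS male peaks were also over 50% masked.

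*Cdkn1b*, the gene of p27, had the same 2 peaks in both long lists. Its promoter peak had fold 8.71, rank 4570 and pileup 25 in the control female (chr6:134920125-134920640), and fold 8.70, rank 7167 and pileup 53 in the VEDS male (chr6:134919996-134920739). The summit window held a GC box and NF-Y matches in both. A MEF2 match was in the control female window only, and it lay within the VEDS male peak but outside its window. The other peak lay at *Lockd*, a noncoding gene downstream of *Cdkn1b*. It had fold 8.58 and rank 6082 in the control female and fold 9.10 and rank 7355 in the VEDS male.

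The *Cdkn2a* and *Cdkn2b* genes lie side by side and code for p16, p19ARF and p15. Their promoters differed from each other. At *Cdkn2b* (p15) the promoter peak had fold 7.50, −log10 q 8.81, rank 10193 and pileup 13 in the control female (chr4:89310973-89311227). In the VEDS male it had fold 17.9, −log10 q 63.9, rank 1519 and pileup 68 (chr4:89310560-89311268). The CRE was within the peak in both lists, at position -32 from the TSS. *Cdkn2a* had no promoter peak in the control female list. In the VEDS male list a weak peak lay 104 bp upstream of the distal TSS, which starts the p19ARF transcript (chr4:89294757-89295114, fold 4.75, −log10 q 4.25, rank 35167, pileup 10). The TSS of the p16 transcript had no peak in any list, and the nearest control female peak was 28781 bp away and the nearest VEDS male peak 12565 bp. A further VEDS male peak in the flank was 100% masked (rank 32668).

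*Cdkn2c*, the gene of p18, has 2 start sites. At the upstream one, a peak with −log10 q 14.8, rank 5174 and pileup 19 was in the control female list (chr4:109666500-109667171) and a peak with −log10 q 27.6, rank 8551 and pileup 37 in the VEDS male (chr4:109666603-109667187). The downstream start had a peak in the VEDS male list only (chr4:109665261-109665382, fold 5.09, rank 28628, pileup 17). The strongest peak nearby was at the promoter of *Faf1*, a neighbour on the other strand, with ranks of 2625 (control female) and 3635 (VEDS male). An E2F match (TTTGGCGC) was in its VEDS male summit window. This match also lay within the control female peak but outside its window.

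*Trp53* shares its promoter region with *Wrap53*, which is transcribed in the opposite direction. The peak at the *Trp53* TSS had fold 5.21, rank 14393 and pileup 15 in the control female (chr11:69580256-69580386), and fold 6.83, rank 10788 and pileup 47 in the VEDS male (chr11:69580031-69580442). A stronger peak lay 776 bp and 765 bp upstream, at a *Wrap53* start, with fold 8.86, rank 4218 and pileup 26 in the control female and fold 10.1, rank 3753 and pileup 70 in the VEDS male. An intron of *Trp53* had a peak in the VEDS male list only (chr11:69581417-69581607, fold 5.69, rank 15386, pileup 39), with a GC box and an ETS match. No p53 element was matched in any of these windows.

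*Mdm2* is transcribed from a constitutive promoter and from an internal one that p53 activates. The main TSS had a peak with fold 7.06, rank 11051 and pileup 13 in the control female (chr10:117710676-117711020) and fold 8.73, rank 13046 and pileup 30 in the VEDS male (chr10:117710676-117711036), and GC box and ETS matches were in both windows. Close to an internal start, the VEDS male list had a further peak (chr10:117710089-117710236, fold 5.08, rank 28658, pileup 17) with an AP-1 and an ETS match. No p53 element was matched in the window of this internal peak. The distal region, 6922 bp upstream, was also in the VEDS male list only (chr10:117717680-117717853, fold 7.17, −log10 q 10.7, rank 21475, pileup 18). Its window was the only one of the 35 with both a p53 element and an AP-1 match. A peak within *Cpm*, on the far side of the gene, had rank 22148.

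*Gadd45a*, a p53-induced stress gene, had the highest-ranked peak of the 10 genes in the VEDS male library. At its promoter the peak had fold 10.2, −log10 q 17.9, rank 3680 and pileup 24 in the control female (chr6:67037322-67037659), and fold 17.6, −log10 q 86.7, rank 355 and pileup 97 in the VEDS male (chr6:67037289-67037668). The windows of both held the p53 element, the GC box and the NF-Y match. The element with 1 mismatch at chr6:67037860-67037883 lay outside, 201 bp and 192 bp from these peaks. Within the gene, the VEDS male list had a second peak (chr6:67036499-67036643, fold 5.54, rank 19344, pileup 30) at the AP-1 match, which is also at the start of the overlapping gene *E230016M11Rik*.

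*Rb1*, which codes for RB, had a GC-rich promoter peak in both lists. It had fold 6.38, rank 12939 and pileup 12 in the control female (chr14:73325714-73326181) and fold 6.96, rank 19009 and pileup 23 in the VEDS male (chr14:73325626-73326225). The 300-bp window around its summit had a GC content of 77.0% and 80.7%, against a median of 62.7% and 61.3% over all promoter windows of these lists. Deep in the gene the VEDS male list had 2 more peaks with pileup 12 each, 1 in an intron with the p53 element shown above (rank 31053) and 1 at the start of *Lpar6*, a receptor gene inside *Rb1* (rank 31196).

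*Ccnd1*, the gene of cyclin D1, had no peak at its TSS in any list. The nearest control female peak was 11667 bp from the TSS of the coding transcript, and the nearest VEDS male peak was 1682 bp upstream of it (chr7:144941551-144941725, fold 5.06, rank 27193, pileup 19). The latter carried the E2F match, and another VEDS male peak with a GC box and an E-box lay farther upstream (rank 35978). The strongest peak of the locus belonged to the neighbour *LTO1*, with ranks of 2664 (control female) and 4890 (VEDS male), and it held a p53 element with 1 mismatch. A peak within *LTO1* had rank 19550 and 23160, respectively.

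Ranked among all genes with a promoter peak, the 10 genes spread over nearly the whole range. For the highest-ranked peak within 3 kb of a TSS, *Gadd45a* was at place 334 of 12827 genes in the VEDS male (2.60%) and at 34.4% of 10395 genes in the control female. *Cdkn2b* was at 12.5% and 72.0%, and *Trp53* at 28.4% and 38.4%. The other genes with a peak in both lists, *Cdkn1b*, *Cdkn1a*, *Cdkn2c*, *Mdm2* and *Rb1*, were at 47.4%, 51.1%, 53.8%, 69.6% and 82.2% in the VEDS male and at 41.0%, 48.5%, 45.0%, 75.6% and 82.3% in the control female. *Ccnd1* and *Cdkn2a* came last in the VEDS male, at 91.8% and 97.3%. The place of *Trp53* rests on the peak at the *Wrap53* start and that of *Cdkn1a* on the intron peak in both lists, since these ranked above the peaks at the TSS. The lists differ in length and pileup, so the places are given side by side and no difference between lists is read from them.

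**Figure D2:**
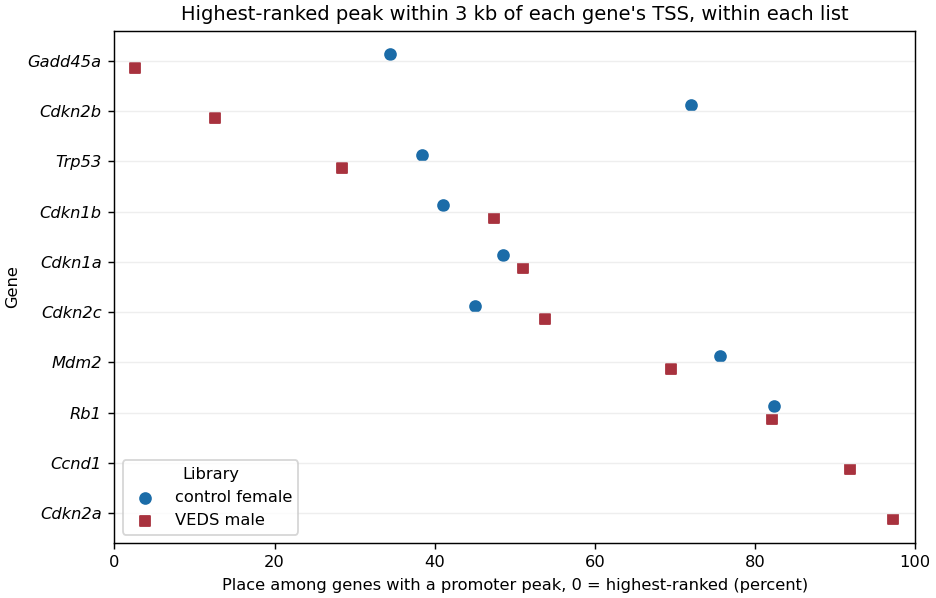
Place of each gene's highest-ranked peak within 3 kb of a TSS among all genes with such a peak (percent, 0 is the strongest) in the control female (circles) and VEDS male (squares) lists. Of the VEDS male points, *Gadd45a* was first at 2.60% and *Cdkn2a* last at 97.3%, and in the control female list the 8 genes ran from *Gadd45a* at 34.4% to *Rb1* at 82.3%. The points of *Trp53* and *Cdkn1a* are the *Wrap53* start and the *Cdkn1a* intron.

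All control female peaks at the 10 genes had a counterpart in the VEDS male list, while most VEDS male peaks had none in the control female list. Both shares lay near those of all peaks of the lists. Of the control female peaks, 17 of 17 overlapped a VEDS male peak (81.6% to 100%), against 95% of all peaks of that list. Of the VEDS male peaks, 16 of 35 overlapped a control female peak (45.7%, interval 30.5% to 61.8%), against 47.6% of all. The 16 that overlapped had pileups of 15 to 97 (median 49) and a median rank of 7653. The 19 that did not had pileups of 9 to 39 (median 15) and a median rank of 31196. Within 5 groups of equal size by rank, 9 of 9, 4 of 6, 2 of 5, 1 of 9 and 0 of 6 VEDS male peaks overlapped, from the strongest to the weakest. The share over all peaks of these groups was 97.6%, 75.1%, 39.6%, 18.1% and 7.52%. The highest-ranked VEDS male peak of the 10 genes without a control female counterpart was at the *Atp1b2* promoter near *Trp53* (rank 10954, pileup 36).

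**Figure D3:**
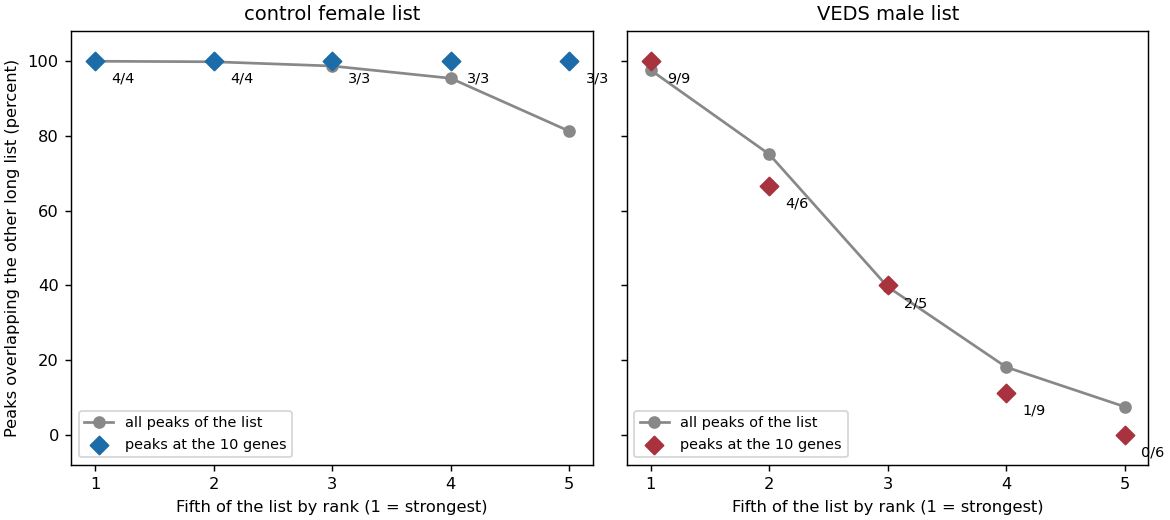
Share of peaks that overlap the other long list (percent) by rank group, with group 1 the strongest. Grey points are all peaks and diamonds are peaks at the 10 genes, with their counts. In the VEDS male list both fell with rank, from 9 of 9 to 0 of 6 for the 10 genes and from 97.6% to 7.52% for all peaks.

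The p53 element was in 3 of 17 control female windows (17.6%, against 4.84% of all windows of that list) and 6 of 35 VEDS male windows (17.1%, against 5.36%). By locus these were *Trp53cor1*, *Gadd45a* and *LTO1* in both lists, with the *Mdm2* upstream region and 2 regions inside *Rb1* added in the VEDS male. The AP-1 match was in 1 of 17 (5.88%) and 4 of 35 (11.4%) windows, against 11.6% in either list. E2F was in 0 of 17 and 2 of 35 windows (5.71%), against 569 of all 21128 and 828 of all 41365 windows of these lists. The E2F match at *Faf1* also lay within the control female peak, outside its window. CRE was in 1 window of each, at *Cdkn2b* (5.88% and 2.86%, against 2.59% and 1.77%). The GC box (GGGCGG) was in 10 of 17 (58.8%, against 40.0%) and 16 of 35 (45.7%, against 29.7%). NF-Y (CCAAT followed by CA, CG, GA or GG) was in 5 and 6 windows (29.4% and 17.1%, against 18.7% and 14.7%), and ETS (CCGGAAG or CCGGAAA) in 1 and 3 (5.88% and 8.57%, against 13.3% and 9.62%). These backgrounds are over all windows, many over 3 kb from a TSS. Most peaks of the 10 genes lay within 3 kb of one. Over promoter windows alone the shares were 65.5% and 56.9% for the GC box, 25.7% and 20.8% for NF-Y, and 22.03% and 17.9% for ETS. For AP-1 they were 5.346% and 5.996%, and for the p53 element 3.62% and 4.11%. At the genes' own promoters, 7 of 8 and 10 of 13 windows held a GC box, 4 of each NF-Y, and 1 of each a p53 element. Among 32851 RefSeq promoters of 300 bases, 4.09% held a p53 element, 5.20% AP-1, 1.79% CRE, 2.26% E2F and 35.7% a GC box. FOXO (TGTTTAC), CArG and CTCF were matched in no window of the 10 genes, and are in 3.15%, 3.02% and 1.93% of all control female windows and 3.34%, 3.09% and 3.12% of all VEDS male windows, so that counts of 0 lie near these shares. Both strands were searched, and a match describes letters and not binding.

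**Figure D4:**
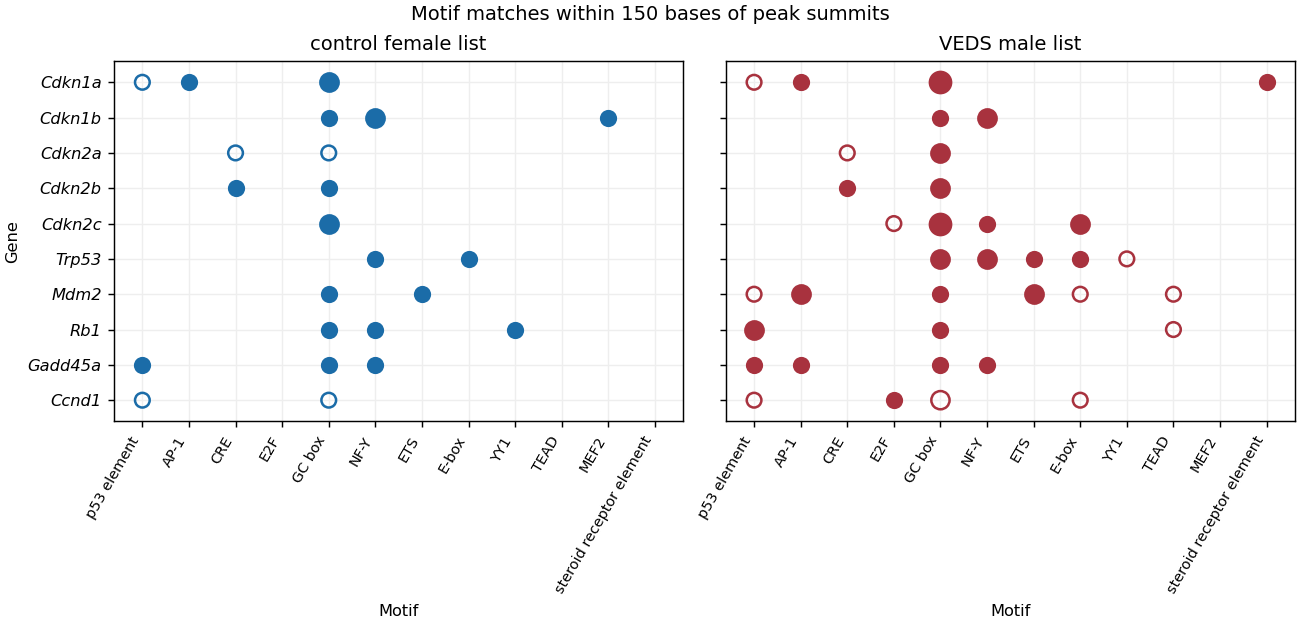
Motif matches within the 300 bases around peak summits, by gene and motif, in the control female and VEDS male lists. Larger circles are more peaks with a match, and filled circles have at least 1 such peak within 3 kb of a TSS of the gene. GC boxes were at 9 genes or their flanks in the control female and at all 10 in the VEDS male, while AP-1 was at 1 and 3.

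Over the whole windows of the 10 genes (606 kb after merging), the sequence held 116 separate p53 elements with at most 2 mismatches, 29 with at most 1 and 2 with none. Peaks touched 3 of the 116 in the control female list and 7 in the VEDS male, 2 and 4 of the 29, and neither of those without mismatch. The peaks covered 6605 and 13682 bases of these windows. The other element without mismatch was upstream of *Ccnd1* at chr7:144954088-144954118, 25886 bp from the nearest control female peak and 10526 bp from the nearest VEDS male peak. Its paired sites are 11 bases apart, and those of the *Cdkn1a* element without mismatch 12 bases. Elements were sorted by mismatches only, without regard to this distance. RefSeq promoters were found for 8 of the 10 genes, and *Rb1* and *Ccnd1* had no entry.

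Other genes of the pathway mostly had a promoter peak in the long lists as well. Of 57 further genes, 47 had a peak within 3 kb of a TSS in the control female (82.5%, interval 70.6% to 90.2%) and 55 in the VEDS male (96.5%, 88.1% to 99.0%). In the VEDS female this was 0 (up to 6.31%) and in the control male 2 (3.51%). Over all protein-coding genes the share was 47.4% (control female), 58.5% (VEDS male), 1.49% (VEDS female) and 1.56% (control male). The 2 control male peaks were at *E2f3*, an E2F activator (rank 508), and at *Sesn1*, a p53-induced sestrin (rank 704), and neither was mostly masked. Both genes also had one in the long lists, where *E2f3* had ranks of 297 (control female) and 250 (VEDS male). The cyclins and kinases had 10 of 11 and 11 of 11 in the 2 long lists, the RB and E2F genes 8 of 10 and 10 of 10, the regulators of p53 8 of 10 and 9 of 10, the p53 targets 19 of 23 and 22 of 23, and the other inhibitors 2 of 3 and 3 of 3.

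*Trp63*, a relative of p53 that marks epithelia, and *Pmaip1*, the gene of the death factor NOXA, had no promoter peak in any list. In the VEDS male list only were the promoters of *Cdkn1c* (p57), *Cdk6*, *Rbl1* (p107), *E2f6*, *Trp73*, *Zmat3*, *Eda2r* and the death receptor gene *Fas*. Their best peaks had a median rank of 17689 there (8065 at *Trp73* to 34274 at *E2f6*), against 4906 for the 47 genes with a promoter peak in both lists. Over all protein-coding genes, 12827 had a promoter peak in the VEDS male list and 10395 in the control female list.

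**Figure D5:**
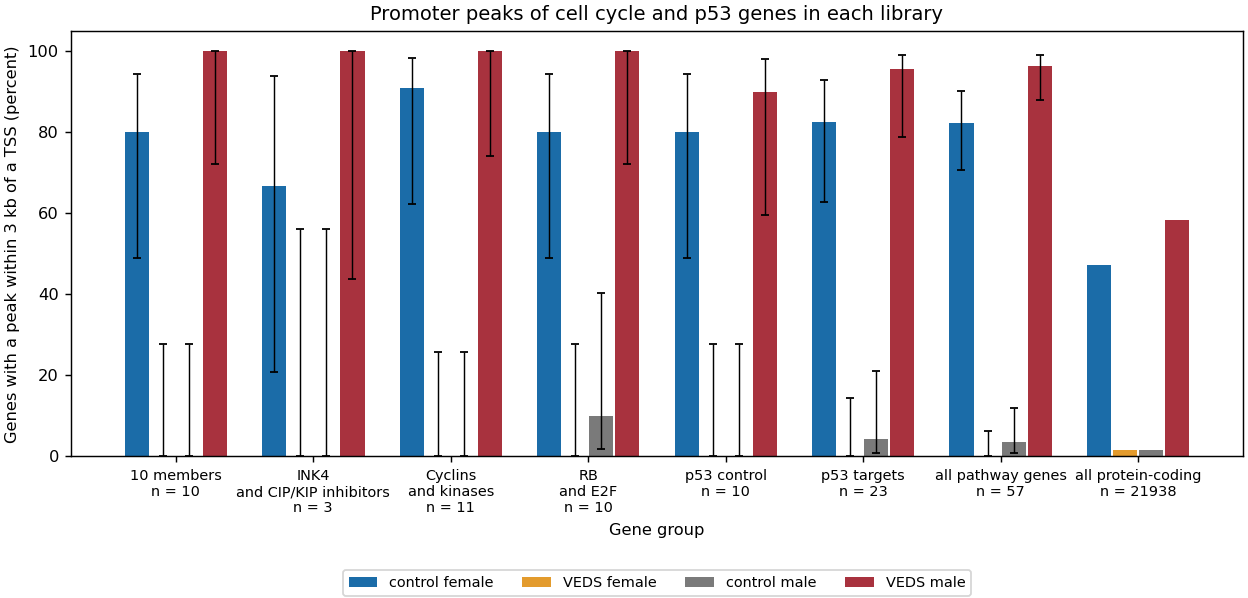
Share of genes with a peak within 3 kb of a TSS (percent) in each library, for the 10 genes, the groups of the pathway and all protein-coding genes. Lines are 95% Wilson intervals over genes, for counting error only. The 10 genes reached 80.0% and 100% in the long lists and 0% in the short lists.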

How the data were processed

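Nuclei of 4 aortic libraries were profiled by ATAC-seq. The authors removed duplicates within barcodes and shifted reads for the Tn5 cut before MACS2 was run on mm10 (GRCm38) alignments, and left out blacklisted regions. The aligner is not given in the sources used here. Each deposited list gives a score, the fold enrichment (a ratio), −log10 p and −log10 q, all as the authors made them. Columns of values that matched no sample numbered 0.

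Peaks were ranked by −log10 q within a list. Pileup was recovered as the whole number giving the deposited fold (pseudocount 1) and −log10 p within 0.002, for 99.3% to 99.9% of peaks (100% in 500 simulated peaks). Total depth was not used. Overlap was at least 1 bp, and motif windows were 300 bp around summits. TSSs were those of GENCODE vM21, the same build.

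The 10 genes and all lists were chosen with earlier results of these data known. Named were every peak within 3 kb of a gene's own TSS and every short-list peak. Most of the 2 highest other peaks of each gene in each long list were also named. Not described one by one were such peaks of *Cdkn2c* (rank 37721) and *Trp53* (rank 32158) in the VEDS male, and of *Cdkn1a* (rank 14780) in the control female. Pathway genes were named without a promoter peak in a long list or with one in a short list. Other peaks named were chosen after their values were seen. Alternatives were stricter q, equal list size, other flanks, TSS definitions, overlaps, windows and mismatches, a masking filter, and leaving out each library. Python 3.11.15, numpy 2.4.6, pandas 2.3.3, scipy 1.17.1, pysam 0.24.0 and matplotlib 3.10.9 were used.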

Additional observations from a re-analysis of the deposited data

Results flagged for a closer look

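The difference between VEDS and control libraries had opposite signs in the sexes. For peaks at the 10 genes, VEDS minus control was -16 in females (1 against 17) and 34 in males (35 against 1). For the count of these genes with a promoter peak it was -8 in females (0 against 8) and 10 in males (10 against 0). For the 57 further genes it was -47 in females (0 against 47) and 53 in males (55 against 2). These differences were not tested, since each genotype and sex has 1 library. They ran with the length of the lists, 504 against 21176 peaks in females and 41444 against 1236 in males. The signs were the same over all 21938 protein-coding genes. Of these, 327 (VEDS) against 10395 (control) had a promoter peak in females, and 12827 against 342 in males.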

How the results depend on the processing

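Of 113 alternative values of 20 results, 80 stayed within 1.5 times the count (or within the interval of the share) and 33 did not. With only the 504 strongest peaks of each list, peaks at the 10 genes were 0 in the control female, 1 in the VEDS male and 0 in the control male, genes with a promoter peak 0 and 1 in the long lists, further pathway genes 2 and 2 there and 0 in the control male, regions 0 in control and 2 in VEDS, and 0% of VEDS male peaks overlapped, while the control female gave no share. At a −log10 q of at least 10, the control female had 8 peaks at the 10 genes and 5 promoters, the VEDS male 19 peaks, and the regions were 8 in control and 19 in VEDS. The single peaks of the short lists were lost (0) at a −log10 q of 5 or 10, with a flank of 5 kb, and without mostly masked peaks, and the 2 control male pathway promoters were 0 at either threshold. A flank of 50 kb gave 55 VEDS male peaks and 55 VEDS regions. Requiring an overlap of 50% of each peak lowered the control female share from 100% to 70.6%. With 3 mismatches, the p53 element was in 7 control female and 11 VEDS male windows. The share over all windows was not counted at 3 mismatches, so these counts have no background beside them. Without each library in turn, regions ranged from 1 to 17 in control and from 1 to 35 in VEDS, so that the long list alone sets each count. No paired analysis was possible because no test was made, with 1 library for each genotype and sex. The differences within each sex are given above as values only. The short lists had median pileups of 6 and 7, and the part of depth in their length was not tested.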
